A study of Homo sapiens with 12 samples.

Results

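The transcription factors that run the germinal-centre reaction of B cells, and those that end it, were followed through exposure to a SYK inhibitor and a BET inhibitor. The 10 genes were chosen by name: BCL6, BACH2, PAX5, IRF8, SPIB, POU2AF1 and MEF2B, which act in mature and germinal-centre B cells, and IRF4, PRDM1 and XBP1, which act on the way to the plasma cell. All 10 were among the 46863 genes of the count table, and 8 of them were among the 16835 genes that held enough reads to be tested; IRF4 and PRDM1 did not. RNA had been sequenced from SU-DHL-4, an established human cell line of diffuse large B-cell lymphoma of the germinal-centre type, labelled as wild type and as a peritoneal effusion line. Cells were kept for 72 h with the solvent DMSO, with 1 µM entospletinib (Ento, an inhibitor of the kinase SYK), with 0.01 µM AZD5153 (AZD, a bivalent inhibitor of BET proteins), or with Ento and AZD at the same doses. Each of the 4 groups had 3 libraries, numbered 1 to 3, and all results come from this 1 cell line, 1 time point and 1 dose of each agent.

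In a germinal centre, BCL6 is the repressor that keeps B cells dividing and mutating their antibody genes, and it holds PRDM1 down. BACH2, a repressor that binds DNA with small MAF proteins, also keeps PRDM1 low, and PAX5 maintains B-cell identity. When a B cell leaves the reaction, IRF4 and PRDM1 (which encodes Blimp-1) rise, PAX5 and BCL6 are shut down, and XBP1 enlarges the secretory apparatus. SYK passes the signal of the B-cell receptor on to the cell interior, and BET proteins read acetylated chromatin at active genes.

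The regulatory sequence next to the start of these genes was read first, because several of the factors are known to bind one another's genes. RefSeq promoter windows (GRCh38.p14, 250 bases before to 50 bases after an annotated start) were matched for 9 of the 10 genes, in 13 windows; POU2AF1 had no entry in the table used. The 4 upstream stretches shown are those of BACH2 and XBP1, which hold the largest changes reported below, and of BCL6 and PRDM1, which hold a match to the core TGAGTCA that BACH2 shares with AP-1. Each is the 250 bases before an annotated start, written 5′ to 3′ on the strand of the gene, in lower case with motif matches in capitals. The stretches of BCL6 and PRDM1 lie before starts inside the annotated gene, and each of these genes has another window further upstream. BACH2 lies on the minus strand (chr6:90296844-90297093), XBP1 on the minus strand (chr22:28800570-28800819), BCL6 on the minus strand (chr3:187736502-187736751) and PRDM1 on the plus strand (chr6:106098691-106098940). The capitals mark TGAGTCA or its reverse complement in BCL6 and PRDM1, and a second run, a match to GGAANNGAA, in PRDM1 alone.
BACH2: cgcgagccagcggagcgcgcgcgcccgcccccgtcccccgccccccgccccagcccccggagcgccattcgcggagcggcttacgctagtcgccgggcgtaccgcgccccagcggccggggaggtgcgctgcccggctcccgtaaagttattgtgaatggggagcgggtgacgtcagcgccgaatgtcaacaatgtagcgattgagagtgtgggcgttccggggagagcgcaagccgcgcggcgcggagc
XBP1: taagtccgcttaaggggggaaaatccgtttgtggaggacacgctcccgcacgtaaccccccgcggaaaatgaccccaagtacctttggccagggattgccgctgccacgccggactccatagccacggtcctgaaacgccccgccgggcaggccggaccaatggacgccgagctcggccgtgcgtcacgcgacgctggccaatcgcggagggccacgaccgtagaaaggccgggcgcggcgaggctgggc
BCL6: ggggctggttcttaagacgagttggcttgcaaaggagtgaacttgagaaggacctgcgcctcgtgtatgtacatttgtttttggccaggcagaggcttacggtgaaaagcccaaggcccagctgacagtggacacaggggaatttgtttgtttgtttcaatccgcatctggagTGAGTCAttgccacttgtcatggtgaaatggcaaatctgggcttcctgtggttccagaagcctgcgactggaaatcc
PRDM1: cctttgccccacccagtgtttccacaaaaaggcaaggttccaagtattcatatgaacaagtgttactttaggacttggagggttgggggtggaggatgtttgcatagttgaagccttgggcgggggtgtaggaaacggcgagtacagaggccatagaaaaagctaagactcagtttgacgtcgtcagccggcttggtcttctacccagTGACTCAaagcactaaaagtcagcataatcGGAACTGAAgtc
The BACH2 window was rich in G and C (73.3% of its 300 bases, against a median of 58.7% over the 35116 windows of the table), while this PRDM1 window was at 48.3%.

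Of the 8 motifs searched on both strands, TGAGTCA was present in the windows of 2 of the genes, BCL6 and PRDM1, and in 4.95% of all windows. The BCL6 and STAT motif TTCNNGGAA was present, of the 13 windows, only in the other one of BCL6 (chr3:187745419-187745718), at 2 places, against 4.45% of all windows. GGAANNGAA, to which Ets factors such as SPIB bind together with an IRF, was present in PRDM1 and in 7.79% of all windows. The octamer ATTTGCAT, the site of the OCT factors that POU2AF1 assists, was present in MEF2B and in 1.77% of all windows. GAAANNGAA (IRF factors, 8.11% of all windows), TAAAAATAG (MEF2 factors, 0.453%), TGACGTGG (XBP1 and ATF6, 0.729%) and GTAAACA (FOXO factors, 3.42%) were in none of the 13 windows. None of these motifs occurred in the windows of BACH2 or XBP1, and a match or its absence is a description of these letters alone.

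The libraries were alike in depth, at 18121993 to 24675830 counts in total. Markers of B cells, a list of 5 genes, were high in every library, with a summed level of 3167 to 6844 CPM (the count as a share of the TMM-scaled library size), and those of germinal-centre B cells, BCL6 among them, summed to 1320 to 1789 CPM. The highest sum of the monocyte list was 6.04 CPM, with 3 of its 5 genes at 3 counts or fewer in each group. Of the T-cell list, 2 of 5 genes were at 0 throughout and only CD3E passed the filter on low counts, while the list summed to at most 2.19 CPM (CD3E was lower with AZD, by a log2 change of -1.02); the NK-cell list summed to at most 2.71 CPM and the epithelial or mesothelial list to at most 0.334 CPM. The summed level of the B-cell markers reached from 3167 to 5183 CPM with DMSO, from 3750 to 6844 CPM with Ento, from 4542 to 6815 CPM with AZD and from 5011 to 6677 CPM with both agents. Of these 5 markers, 3 were higher than with DMSO with Ento, 2 with AZD and 4 with both agents, and none was lower. Of all genes tested, 4.66% were called higher with Ento, 9.57% with AZD and 19.2% with both agents. Called lower were 3.66%, 12.7% and 20.8% in the same order. In bulk RNA, fewer cells of a kind and less RNA per cell cannot be told apart. The part that these shifts have in the results was not tested.

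The 10 genes spanned a wide range of levels. Per kilobase of annotated exon, BCL6 led in every group, at 126 ± 20.8 CPM per kb with DMSO (mean ± SD, n = 3, as in all such values). POU2AF1 followed at 57.8 ± 4.71, SPIB at 48.8 ± 12.9, IRF8 at 39.6 ± 4.47 and PAX5 at 39.5 ± 5.36 CPM per kb. From POU2AF1 to PAX5, each neighbouring pair in this order overlapped within 1 SD. BACH2 was at 10.6 ± 3.24 and MEF2B at 7.05 ± 1.22 CPM per kb, again overlapping, and XBP1 stood apart below them at 0.941 ± 0.197 CPM per kb. With AZD, MEF2B (8.87 ± 0.624 CPM per kb) and BACH2 (8.26 ± 2.94 CPM per kb) changed places without standing apart. With Ento and with both agents, BACH2 (26.9 ± 5.26 and 26.4 ± 5.95 CPM per kb) stood above MEF2B by more than 1 SD of each. The order in the middle of the list depended on the length used: per kilobase of the longest transcript, POU2AF1 was at 141 CPM per kb and IRF8 at 65.6 CPM per kb with DMSO, which placed IRF8 above SPIB (55.1 CPM per kb), and with Ento POU2AF1 (195 CPM per kb) passed BCL6 (181 CPM per kb).

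**Figure D1:**
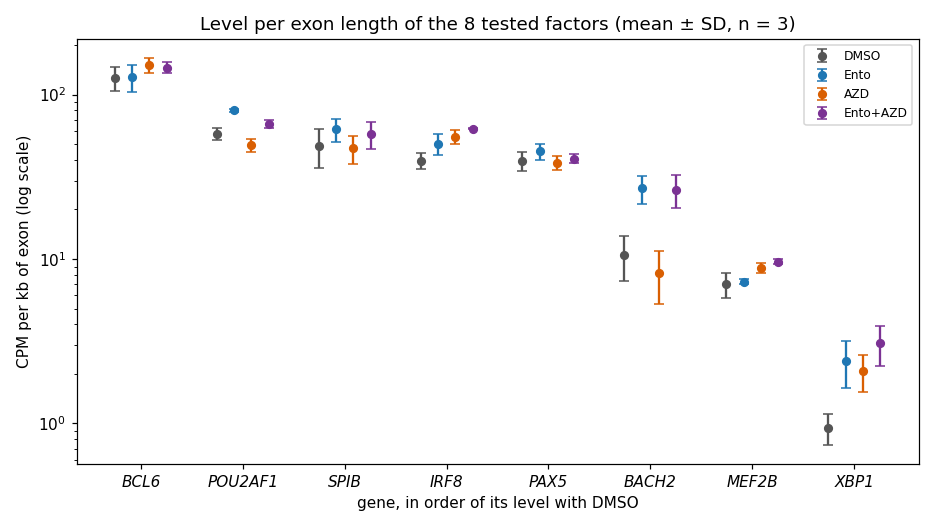
Level of the 8 tested factors per kilobase of exon (vertical axis, CPM per kb, log scale) in the 4 groups; points are means of 3 libraries and bars 1 SD. BCL6 was the highest in each group and XBP1 the lowest, and BACH2 moved from 10.6 with DMSO to 26.9 with Ento and 26.4 with both agents.

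At the other end stood the regulators of the plasma cell. IRF4, which at high levels drives plasma cells and the activated type of this lymphoma, was counted 9, 4 and 4 times with DMSO, 0, 3 and 2 times with Ento, 1, 1 and 4 times with AZD, and 4, 0 and 1 times with both agents. PRDM1 had 2, 1 and 3 counts with DMSO, 3, 0 and 5 with Ento, 0 in each of the 3 AZD libraries, and 3, 1 and 0 with both agents. A count of 0 with AZD allows up to 0.126 to 0.160 CPM in these libraries, taking 3 counts as the limit and counting error alone. By count, the AZD libraries were the one group of PRDM1 below all DMSO libraries. The DMSO libraries, at 0.0458 to 0.118 CPM, lay under that limit, so a lower level with AZD cannot be told from counting error. For IRF4 the Ento libraries (0 to 3 counts) were below the DMSO libraries (4 to 9 counts), and the other groups reached 4 counts. No fold is given for counts this low. Fitted without the filter on low counts, neither gene was called in any comparison by edgeR's quasi-likelihood test (the smallest adjusted p was 0.126, for PRDM1 in Ento against AZD). Before adjustment, PRDM1 was past 0.05 in 2 comparisons, AZD against DMSO and Ento against AZD, and IRF4 in none. Both genes stayed at 9 counts or fewer in every library. Of the plasma-cell markers, which summed to 756 to 1178 CPM, JCHAIN (the joining chain of antibodies, 711 CPM with DMSO) and MZB1 (a chaperone of antibodies, 187 CPM with DMSO) made up most, whereas SDC1, which encodes the plasma-cell surface protein CD138, and PRDM1 did not pass the filter.

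Among the 8 tested genes, 5 were higher with Ento and none lower, where 4.66% of all genes tested were called higher and 3.66% lower at an adjusted p under 0.05. With AZD, 3 were higher and 2 lower, against 9.57% and 12.7% of all genes. With both agents, 6 were higher and none lower, against 19.2% and 20.8% of all genes. A gene called in this way that also changed by more than 2-fold is termed a DEG below. DEGs made up 1.63% of all genes with Ento, 3.19% with AZD and 8.32% with both agents, and there were 2, 1 and 2 among the 8. The median log2 fold change of the 8 was 0.35 with Ento, 0.11 with AZD and 0.35 with both agents, where the median of all genes tested was 0.01 in each of these 3 comparisons. The 3 comparisons share the DMSO libraries. The 10 genes were chosen with earlier results of these data known, so their shares are a description and no independent test. None of the 8 was near the filter, since the lowest count of any of them in any library was 55. All calls are from edgeR's quasi-likelihood test with the replicate number in the model and Benjamini-Hochberg adjustment over all 16835 genes. Of the 25 calls made for these 8 genes over 7 comparisons, 6 held and 19 did not when the replicate number was left out of the model.

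**Figure D2:**
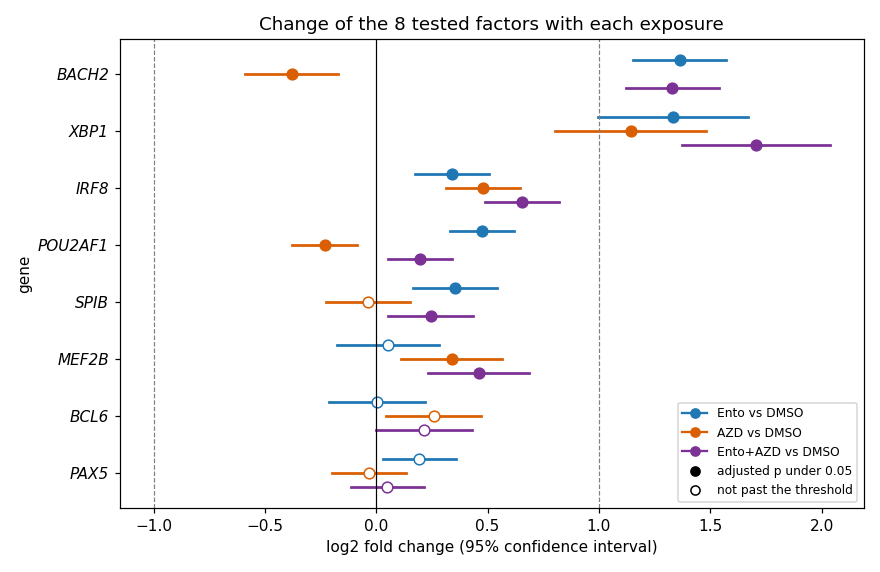
log2 fold change against DMSO (horizontal axis) of the 8 tested factors with Ento, AZD and both agents; lines are 95% confidence intervals of the fit, filled points passed an adjusted p of 0.05, and dashed lines mark a 2-fold change. BACH2 was at 1.36 with Ento and -0.38 with AZD, while XBP1 was above 1 with each exposure.

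BACH2 (chr6:89926528-90296843, minus strand, GRCh38) showed the most divided pattern. It was at 98.4, 156 and 91.6 CPM in DMSO libraries 1 to 3, at 290, 351 and 236 CPM with Ento, at 88.4, 122 and 58.5 CPM with AZD, and at 292, 350 and 220 CPM with both agents. Every library that had received Ento lay above every library that had not. With Ento, BACH2 was 2.57-fold higher than with DMSO (log2 fold change 1.36 ± 0.10 SE, adjusted p = 4.82e-06), and with both agents 2.51-fold (1.33 ± 0.10, adjusted p = 1.82e-06). With AZD it was 1.30-fold lower (log2 fold change -0.38 ± 0.10, adjusted p = 0.0146), lower in 3 of 3 libraries with the same number, although the groups overlapped. Tested directly, Ento exceeded AZD by 1.74 ± 0.10 on the log2 scale (adjusted p = 2.29e-07). Adding Ento to AZD raised BACH2 by 1.71 ± 0.10 (adjusted p = 8.83e-07), whereas adding AZD to Ento moved it by -0.03 on the log2 scale, with a 95% interval of -0.24 to 0.17. The AZD call was lost without DMSO replicate 2 or 3 or without AZD replicate 3 (log2 fold change -0.48 to -0.27 over all single omissions, adjusted p up to 0.115), and also once the replicate term was dropped (adjusted p = 0.483). With the term dropped, the calls for Ento against DMSO (adjusted p = 0.0729) and for both agents against AZD (adjusted p = 0.0541) were also lost, while the calls for both agents against DMSO (0.0137) and Ento against AZD (0.00882) held.

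The count of BACH2 per count of BCL6 within a library, a ratio that does not depend on the scaling between libraries, gave the same separation. It was 0.160, 0.182 and 0.118 in the DMSO libraries, 0.400, 0.384 and 0.375 with Ento, 0.106, 0.122 and 0.0689 with AZD, and 0.324, 0.386 and 0.280 with both agents. Per count of PAX5 it was 0.3003 ± 0.0488 with DMSO, 0.673 ± 0.0655 with Ento, 0.242 ± 0.0734 with AZD and 0.732 ± 0.122 with both agents. Such a ratio shows unequal change, not which of the 2 genes moved.

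BCL6 (chr3:187721377-187745725, minus strand), the most abundant of the factors, was not called in any of the 7 comparisons. It was at 616, 858 and 777 CPM with DMSO, at 724, 912 and 629 CPM with Ento, at 836, 1001 and 849 CPM with AZD, and at 900, 904 and 789 CPM with both agents. The groups overlapped throughout. The difference between Ento and DMSO was 0.0033 on the log2 scale, with a 95% interval of -0.21 to 0.22. With AZD the log2 difference was 0.26 (interval 0.04 to 0.47, adjusted p = 0.0798) and with both agents 0.21 (interval -0.0025 to 0.43, adjusted p = 0.107), higher in 3 of 3 libraries with the same number in both. Without DMSO replicate 3 both of these passed the threshold, and the log2 difference over all single omissions reached from 0.14 to 0.37 with AZD and from 0.09 to 0.32 with both agents. Ento against AZD gave -0.25 (adjusted p = 0.108), which passed without DMSO replicate 1 or 3 (-0.33 to -0.16), and both agents against Ento gave 0.21 (adjusted p = 0.157). Without a filter on low counts BCL6 passed in 4 comparisons, with AZD (adjusted p = 0.00774), with both agents (0.0303), for both agents against Ento (0.0493) and for Ento against AZD (0.00993), and the last also passed when only those groups were fitted (0.0108).

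PAX5 (chr9:36833269-37034268, minus strand) was likewise not called in any comparison. Its level was 354, 437 and 343 CPM with DMSO, 446, 469 and 379 CPM with Ento, 335, 405 and 365 CPM with AZD, and 390, 414 and 366 CPM with both agents. The groups overlapped, and with Ento the libraries were higher than the DMSO library of the same number in 3 of 3 cases. The log2 difference was 0.19 with Ento (95% interval 0.03 to 0.36, adjusted p = 0.138), -0.03 with AZD (-0.20 to 0.13) and 0.05 with both agents (-0.12 to 0.21). Ento against AZD gave 0.23 (adjusted p = 0.0654), which passed the threshold under another filter on low counts or when only those 2 groups were fitted. None of the 95% intervals of BCL6 or PAX5 against DMSO reached a 2-fold change.

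XBP1 (chr22:28794555-28800597, minus strand), a regulator of the secretory apparatus that plasma cells need and that all cells use under folding stress, was the one gene of the 8 tested to change by more than 2-fold with each exposure. It was at 3.18, 3.21 and 2.16 CPM with DMSO, at 7.99, 9.16 and 4.67 CPM with Ento, at 6.78, 7.64 and 4.55 CPM with AZD, and at 11.98, 9.01 and 6.94 CPM with both agents. The lowest library with any agent lay above the highest DMSO library. The counts behind these values were 80, 70 and 55 with DMSO and 245, 189 and 123 with both agents, so XBP1 was the least abundant of the tested factors. The fold change was 2.52 with Ento (log2 1.33 ± 0.16 SE, adjusted p = 2.42e-04), 2.21 with AZD (1.14 ± 0.16, adjusted p = 5.20e-04) and 3.26 with both agents (1.70 ± 0.16, adjusted p = 6.69e-06). Ento and AZD differed by 0.19 on the log2 scale (95% interval -0.12 to 0.50, adjusted p = 0.426). Both agents exceeded AZD by 0.56 ± 0.14 (adjusted p = 0.0235). The difference from Ento was 0.37 ± 0.14 (adjusted p = 0.0797) and was not called. The groups overlapped in both comparisons. In libraries with the same number, XBP1 was higher with both agents in 3 of 3 cases against AZD and in 2 of 3 against Ento. The call against AZD was lost without any one of AZD replicates 1, 2 and 3 or of Ento+AZD replicates 1 and 3 (log2 difference 0.43 to 0.73, adjusted p up to 0.139), and the comparison with Ento passed the threshold without Ento+AZD replicate 2. In the fit with no replicate term, the call for both agents against DMSO held (adjusted p = 0.00594), while those for Ento (0.0980), for AZD (0.0697) and for both agents against AZD (0.468) were lost. Gene counts do not tell the spliced, active XBP1 messenger from the unspliced one.

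IRF8 (chr16:85899116-85922606, plus strand), which is high in germinal-centre B cells and binds DNA together with Ets factors, rose with each exposure. Its level was 305, 348 and 279 CPM with DMSO, 384, 455 and 343 CPM with Ento, 404, 481 and 413 CPM with AZD, and 481, 491 and 487 CPM with both agents. The Ento libraries overlapped those with DMSO, while the libraries with AZD and with both agents lay above all DMSO libraries. The Ento and AZD libraries overlapped, and Ento against AZD gave -0.14 on the log2 scale (95% interval -0.31 to 0.03, adjusted p = 0.256). The log2 fold change was 0.34 ± 0.08 SE with Ento (adjusted p = 0.0163), 0.48 ± 0.08 with AZD (adjusted p = 0.00130) and 0.65 ± 0.08 with both agents (adjusted p = 3.06e-05), the last being 1.57-fold. AZD added to Ento raised IRF8 by 0.31 ± 0.08 (adjusted p = 0.0112), whereas Ento added to AZD gave 0.18 (95% interval 0.01 to 0.34, adjusted p = 0.153). The Ento call was lost without Ento replicate 1 or 2 (log2 fold change 0.29 to 0.39 over single omissions, adjusted p up to 0.124), and the call of both agents against Ento without Ento replicate 3 or Ento+AZD replicate 3 (0.25 to 0.40, adjusted p up to 0.0965). With no replicate term, that for both agents against DMSO held (adjusted p = 0.00742) and those for Ento (0.292), for AZD (0.0614) and for both agents against Ento (0.200) were lost. A fit of only the 2 groups compared also lost the Ento call of IRF8 (adjusted p = 0.0534).

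POU2AF1 (chr11:111352255-111455630, minus strand) encodes OCA-B, the B-cell coactivator of the OCT factors that is needed for germinal centres to form. It was at 381, 442 and 390 CPM with DMSO, at 550, 575 and 557 CPM with Ento, at 326, 383 and 325 CPM with AZD, and at 461, 491 and 438 CPM with both agents. The Ento libraries lay above those of all other groups, and the AZD and DMSO libraries overlapped by a narrow margin. With Ento, POU2AF1 was 1.39-fold higher (log2 fold change 0.47 ± 0.07 SE, adjusted p = 8.75e-04). With AZD it was 1.17-fold lower (-0.23 ± 0.07, adjusted p = 0.0249), and with both agents 1.15-fold higher (0.20 ± 0.07, adjusted p = 0.0315). The direct difference of Ento over AZD was 0.71 ± 0.07 (adjusted p = 1.34e-05). Ento added to AZD raised it by 0.43 ± 0.07 (adjusted p = 0.00219). AZD added to Ento lowered it, by a log2 change of -0.28 ± 0.07 (adjusted p = 0.0103). For POU2AF1, as for IRF8 and MEF2B, AZD thus had a called change both alone and on top of Ento. The AZD call of POU2AF1 was lost without any one of the AZD replicates or DMSO replicate 2 (log2 -0.27 to -0.21, adjusted p up to 0.133). The call of both agents against DMSO was lost without DMSO replicate 1 or Ento+AZD replicate 1 or 3 (0.17 to 0.21, adjusted p up to 0.129), and that of both agents against Ento without Ento replicate 1 or 3 or Ento+AZD replicate 3 (-0.32 to -0.25, adjusted p up to 0.0731). Once the replicate term was dropped, only the difference between Ento and AZD held (adjusted p = 0.00278), the other 5 comparisons giving adjusted p of 0.0647 for Ento, 0.190 for AZD, 0.161 for both agents, 0.142 for both against AZD and 0.157 for both against Ento. When only the groups compared were fitted, the calls of POU2AF1 with AZD (adjusted p = 0.0988) and with both agents (0.159) were lost, and the latter was lost without a filter on low counts too (0.0709).

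SPIB (chr19:50418938-50431314, plus strand), an Ets factor of germinal-centre B cells that opposes plasma-cell differentiation, was at 237, 245 and 145 CPM with DMSO, 269, 303 and 218 CPM with Ento, 189, 245 and 170 CPM with AZD, and 257, 285 and 194 CPM with both agents. All groups overlapped, and the spread within a group was wide next to the changes. In libraries with the same number, SPIB was higher with Ento than with DMSO in 3 of 3 cases, with a log2 fold change of 0.35 ± 0.09 SE (adjusted p = 0.0244), and higher with both agents by 0.24 ± 0.09 (adjusted p = 0.0398). AZD gave -0.04 (95% interval -0.23 to 0.15), and Ento exceeded AZD by 0.39 ± 0.09 (adjusted p = 0.00886). Ento added to AZD gave 0.28 (adjusted p = 0.0539), which passed without DMSO replicate 1 or 3 (0.19 to 0.34 over single omissions), and also under the DESeq2 Wald test (adjusted p = 0.0432), with no filter (0.0154) or a stricter filter (0.0435) on low counts, and in a fit of only those 2 groups (0.0162). The Ento call was lost without any one of the Ento replicates or DMSO replicate 3 (0.24 to 0.46, adjusted p up to 0.0999). The call with both agents was lost in 8 of the 12 single omissions, namely of DMSO replicate 2 or 3, Ento replicate 1 or 2, AZD replicate 2 or any replicate of Ento+AZD (0.14 to 0.34, adjusted p up to 0.199), and that of Ento against AZD without AZD replicate 1 or Ento replicate 3 (0.30 to 0.45, adjusted p up to 0.0654). None of the 3 held in the fit with no replicate term (adjusted p = 0.582, 0.469 and 0.402). Fitted on only the groups compared, the calls of SPIB with Ento (adjusted p = 0.0518) and with both agents (0.0862) were lost. Without DMSO replicate 3 the value with both agents was 0.14. Of the exon bases of SPIB, 19.6% are shared on the same strand with ENSG00000142539, which has no row in the count table, and the rule for reads that lie in more than 1 gene is not given in the sources used here.

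MEF2B (chr19:19145567-19192131, minus strand), a factor that activates BCL6 in germinal-centre B cells, was at 14.1, 17.5 and 12.5 CPM with DMSO, at 14.7, 15.7 and 15.1 CPM with Ento, at 17.1, 18.9 and 19.6 CPM with AZD, and at 19.7, 21.0 and 19.7 CPM with both agents. The libraries with both agents lay above those of every other group, though by a narrow margin over AZD (lowest 19.66 against highest 19.60 CPM). Both agents against AZD gave a log2 difference of 0.12 (95% interval -0.10 to 0.35) and was not called. The AZD and DMSO libraries overlapped. The log2 fold change was 0.34 ± 0.11 SE with AZD (adjusted p = 0.0345) and 0.46 ± 0.11 with both agents (adjusted p = 0.00353), and AZD added to Ento raised it by 0.41 ± 0.11 (adjusted p = 0.0153). With Ento alone the log2 difference was 0.05 (95% interval -0.18 to 0.28), and Ento against AZD gave -0.29 (adjusted p = 0.0889), which passed without DMSO replicate 3 or when only those 2 groups were fitted (adjusted p = 0.0369). The AZD call was lost without DMSO replicate 1 or 3, Ento replicate 1 or AZD replicate 2 or 3 (0.22 to 0.45, adjusted p up to 0.206), and the call of both agents against Ento without any one Ento replicate or Ento+AZD replicate 1 or 3 (0.37 to 0.44, adjusted p up to 0.0644). The call for both agents against DMSO held without the replicate number (adjusted p = 0.0348), while that for AZD (0.167) and that of both agents against Ento (0.125) did not. The AZD call of MEF2B was also lost in a fit of only the groups compared (adjusted p = 0.110), and its log2 value was 0.22 without DMSO replicate 3. MEF2B is the least certain of the tested genes to count: 76.8% of its exon bases, and 66.0% of the 75-base stretches of its transcripts, belong also to the read-through gene BORCS8-MEF2B, which was at 0 counts in all 12 libraries. BORCS8 itself, which shares 11.4% of the exon bases, had 65 to 123 counts.

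**Figure D3:**
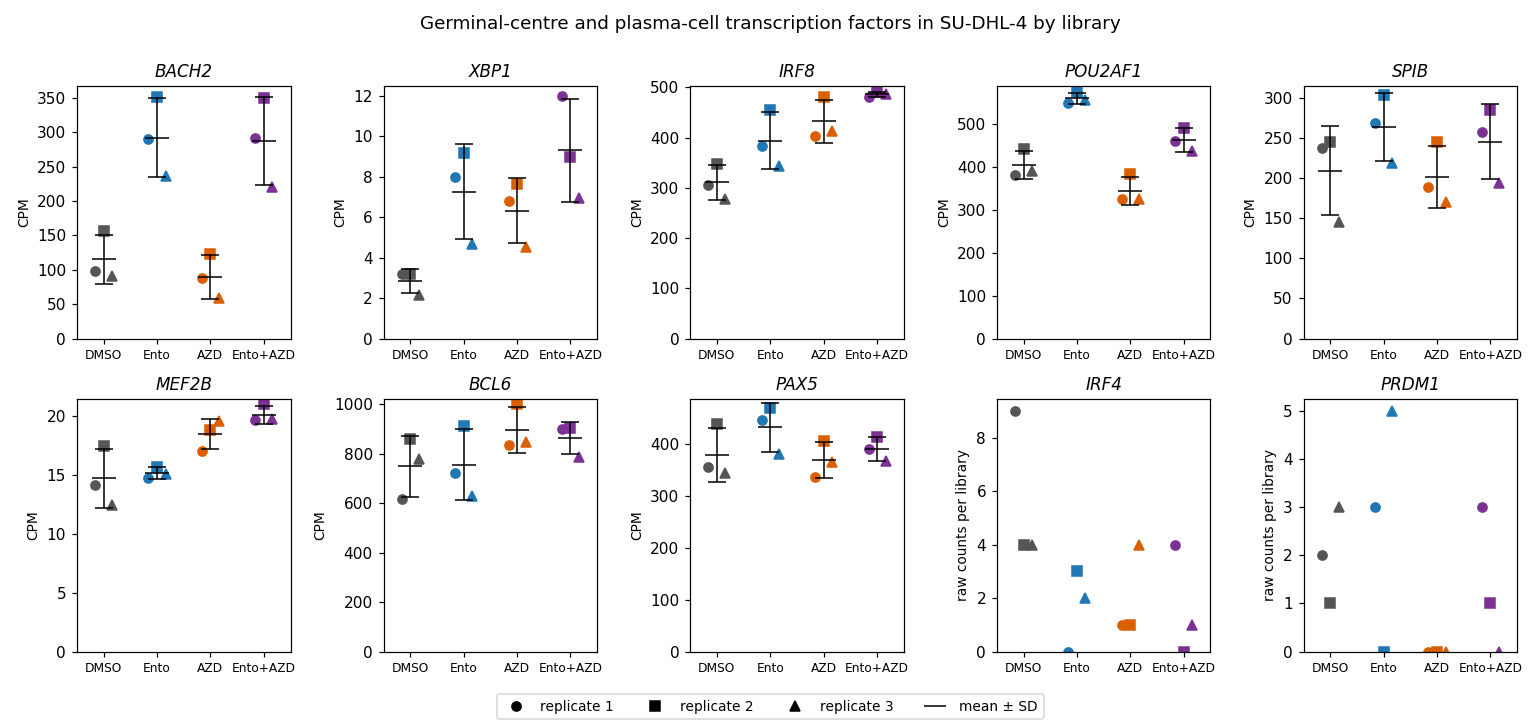
Level of each gene in the 12 libraries (vertical axes, CPM, or raw counts for IRF4 and PRDM1); symbols give the replicate number, and bars the mean and SD of 3 libraries. BACH2 separates libraries with Ento (220 CPM and more) from those without (156 CPM and less), XBP1 lies higher with every agent than with DMSO, and no library held more than 9 counts of IRF4 or 5 of PRDM1.

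The libraries of 1 number moved together across groups for several factors. In BACH2, XBP1 and SPIB the library numbered 3 was the lowest in 4 of 4 groups, and the library numbered 2 was the highest in 4 of 4 groups for BCL6, BACH2, PAX5, IRF8, SPIB and POU2AF1. The fit takes up these shifts through the replicate number, and the SD values over CPM given above still hold them.

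What each agent added in the presence of the other was also counted over the 8 genes. AZD added to Ento raised 2 (IRF8 and MEF2B) and lowered 1 (POU2AF1), where 8.27% of all genes were called higher, 12.2% lower and 3.35% were DEGs, and none of the 8 was a DEG. Ento added to AZD raised 3 (BACH2, POU2AF1 and XBP1) and lowered none, against 5.85% and 6.04% of all genes, with BACH2 the 1 DEG where DEGs were 1.68% of all genes. Between the single agents, 3 were higher with Ento (BACH2, POU2AF1 and SPIB) and none lower, against 8.99% and 5.73%, with BACH2 again the 1 DEG where 3.21% of all genes were DEGs. These comparisons share libraries with those above, and their shares are likewise a description and no independent test. The change with both agents was then set against the sum of the single-agent changes, on the log2 scale, as an interaction. None of the 8 genes was called, and neither was any other gene (0% higher, 0% lower and 0% DEGs) by edgeR's quasi-likelihood test; at an unadjusted p under 0.05 there were 1652 genes, and the DESeq2 Wald test called 7 genes. For XBP1 the interaction was -0.77 (95% interval -1.23 to -0.31, unadjusted p = 0.00280, adjusted p = 0.444), so the value with both agents was below the sum of the 2 single changes. For BACH2 it was 0.35 (interval 0.05 to 0.64, unadjusted p = 0.0234, adjusted p = 0.467), and the intervals of the other 6 genes held 0.

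Genes that the factors are known to control or to work with were counted from 9 lists, beside the same values over all genes. The lists were chosen with earlier results of these data known, so their shares are a description and no independent test. Of all genes tested, 4.66% were called higher and 3.66% lower with Ento, 9.57% and 12.7% with AZD, and 19.2% and 20.8% with both agents. Of 12 genes that PAX5 is known to activate, 8 were higher and none lower with Ento, 3 were higher and 2 lower with AZD, and 9 were higher and 2 lower with both agents. These counts were 66.7% higher with Ento, 25% higher and 16.7% lower with AZD, and 75% higher and 16.7% lower with both agents. Their median log2 fold change was 0.40, 0.08 and 0.54, where the median of all genes was 0.01 in each, while PAX5 itself was not called. The DEGs among them were FCER2, which encodes the low-affinity IgE receptor CD23, and CR2, which encodes the complement receptor CD21. FCER2 was at 1.96 ± 1.69 CPM with DMSO, 6.601 ± 7.21 CPM with Ento, 6.39 ± 5.83 CPM with AZD and 9.47 ± 4.74 CPM with both agents (SD, n = 3), so its spread within the single-agent groups was about as wide as its level. The fit, which takes up the replicate number, gave log2 fold changes of 1.61 ± 0.30 (adjusted p = 0.00589), 1.68 ± 0.31 (0.00227) and 2.48 ± 0.30 (3.19e-05). CR2 was a DEG with Ento (log2 fold change 1.65 ± 0.31, adjusted p = 0.00584) and at 0.97 with both agents. The Ento calls of both genes were lost without Ento replicate 2, where FCER2 was at 1.14 on the log2 scale (log2 1.14 to 1.83 for FCER2 and 1.46 to 1.86 for CR2 over all alternatives). Of the 12, 2 also stand in another list.

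Genes typical of germinal-centre B cells were counted next. With Ento 9 of 20 were higher and 1 lower (median log2 fold change 0.24), with AZD 3 were higher and 6 lower (median -0.07), and with both agents 9 were higher and 3 lower (median 0.08). As shares these were 45% higher and 5% lower with Ento, 15% and 30% with AZD, and 45% and 15% with both agents, beside 4.66% and 3.66%, 9.57% and 12.7%, and 19.2% and 20.8% of all genes. SUGCT, a metabolic enzyme gene used as a marker of this lymphoma type, changed by 2.31 ± 0.31 with Ento (adjusted p = 5.51e-04) and by -1.52 ± 0.46 with AZD (adjusted p = 0.0293). It was low, at 5 to 164 counts in a library. Its level was 1.08 ± 0.49 CPM with DMSO, 5.27 ± 1.98 with Ento, 0.366 ± 0.194 with AZD and 0.843 ± 0.524 with both agents. Both agents against Ento gave -2.65 ± 0.33 (adjusted p = 3.17e-04). LMO2, a transcriptional cofactor of germinal-centre B cells, was higher with AZD by 1.46 ± 0.33 (adjusted p = 0.00708). The AZD call of SUGCT was lost without DMSO replicate 1 or 2 or any one AZD replicate (log2 -1.83 to -1.10 over all alternatives, adjusted p up to 0.175).

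Genes that BCL6 is known to repress moved in both directions. Of 15 tested of 18, 3 were higher and 3 lower with Ento (median log2 fold change -0.01), 1 was higher and 4 lower with AZD (median -0.23), and 4 were higher and 6 lower with both agents (median -0.19). These were 20% higher and 20% lower with Ento, 6.67% and 26.7% with AZD, and 26.7% and 40% with both agents. CD69, an activation marker that holds lymphocytes in tissue, and GPR183, a receptor that guides B cells to the follicle border, were higher with Ento by 2.61 ± 0.37 (adjusted p = 8.29e-04) and 2.60 ± 0.43 (adjusted p = 0.00278), and with both agents by 2.20 ± 0.38 (adjusted p = 4.38e-04) and 2.16 ± 0.45 (adjusted p = 0.00172). Both were low, at 0.650 ± 0.404 CPM for CD69 and 0.577 ± 0.330 CPM for GPR183 with DMSO, and the libraries with both agents were spread widely, at 3.31 ± 3.36 CPM for CD69 and 2.71 ± 2.56 CPM for GPR183 (SD, n = 3). Without Ento+AZD replicate 1 the log2 value with both agents was 1.49 for CD69 (adjusted p = 0.0103) and 1.22 for GPR183 (adjusted p = 0.0253), the lowest over all alternatives. S1PR1, the receptor by which lymphocytes leave tissue, was higher with Ento by 1.56 ± 0.38 (adjusted p = 0.0209) at 2 to 22 counts in a library, and this call was lost without any one Ento replicate or DMSO replicate 1 or 2 (1.35 to 1.92 over all alternatives) and under the DESeq2 Wald test (adjusted p = 0.0991). The cell-cycle inhibitors CDKN1A and CDKN1B went the other way, by -1.89 ± 0.45 (adjusted p = 0.0194) and -1.02 ± 0.26 (adjusted p = 0.0255) with Ento, and CDKN1B by -1.78 ± 0.27 with AZD (adjusted p = 9.11e-04). With both agents CDKN1A was at -1.89 ± 0.46 (adjusted p = 0.00485) and CDKN1B at -1.83 ± 0.28 (adjusted p = 1.88e-04). The Ento call of CDKN1A was lost without Ento replicate 1 or 3 or DMSO replicate 3 (log2 -2.30 to -0.98 over all alternatives, the last without DMSO replicate 3), and that of CDKN1B without any one Ento replicate or DMSO replicate 1 or 3 (-1.17 to -0.86) and under the DESeq2 Wald test (adjusted p = 0.110). Leaving out DMSO replicate 3 also moved CDKN1A with both agents, to -1.01 on the log2 scale (adjusted p = 0.0137). CD44, CXCL10 and CD80 of this list did not pass the filter.

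The lists of the plasma-cell side held no DEG in the 3 comparisons with DMSO. Of 14 plasma-cell genes tested of 20, 3 were higher and none lower with Ento, 2 were higher and 2 lower with AZD, and 3 were higher and 3 lower with both agents, with medians of 0.13, -0.03 and 0.05. As shares these were 21.4% higher with Ento, 14.3% higher and 14.3% lower with AZD, and 21.4% higher and 21.4% lower with both agents, beside the 4.66% and 3.66%, 9.57% and 12.7%, and 19.2% and 20.8% of all genes. Named after their values were seen, PIM2, a survival kinase, was higher with both agents by 0.77 ± 0.17 (adjusted p = 0.00267), and TNFRSF17, which encodes BCMA, was lower by a log2 change of -0.63 ± 0.18 (adjusted p = 0.0106). Of 26 target genes of XBP1 and the secretory pathway tested of 27, 4 were higher and none lower with Ento, 8 were higher and 1 lower with AZD, and 8 were higher and 2 lower with both agents, which is 15.4% higher with Ento, 30.8% and 3.85% with AZD, and 30.8% and 7.69% with both agents. Their median log2 fold change was 0.08, 0.23 and 0.19, and no gene of this list reached 2-fold in these 3 comparisons, the values lying between -0.59 and 0.64. CALR, an endoplasmic-reticulum chaperone that was also chosen after its values were seen, was higher with Ento by 0.53 ± 0.12 (adjusted p = 0.0137), with AZD by 0.47 ± 0.12 (adjusted p = 0.0128) and with both agents by 0.60 ± 0.12 (adjusted p = 0.00112). Of 8 genes that PRDM1 is known to repress, 1 was higher with Ento, 2 were higher and 2 lower with AZD, and 4 were higher and 1 lower with both agents (medians 0.13, 0.11 and 0.33), and 4 of the 8 stand in another list.

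**Figure D4:**
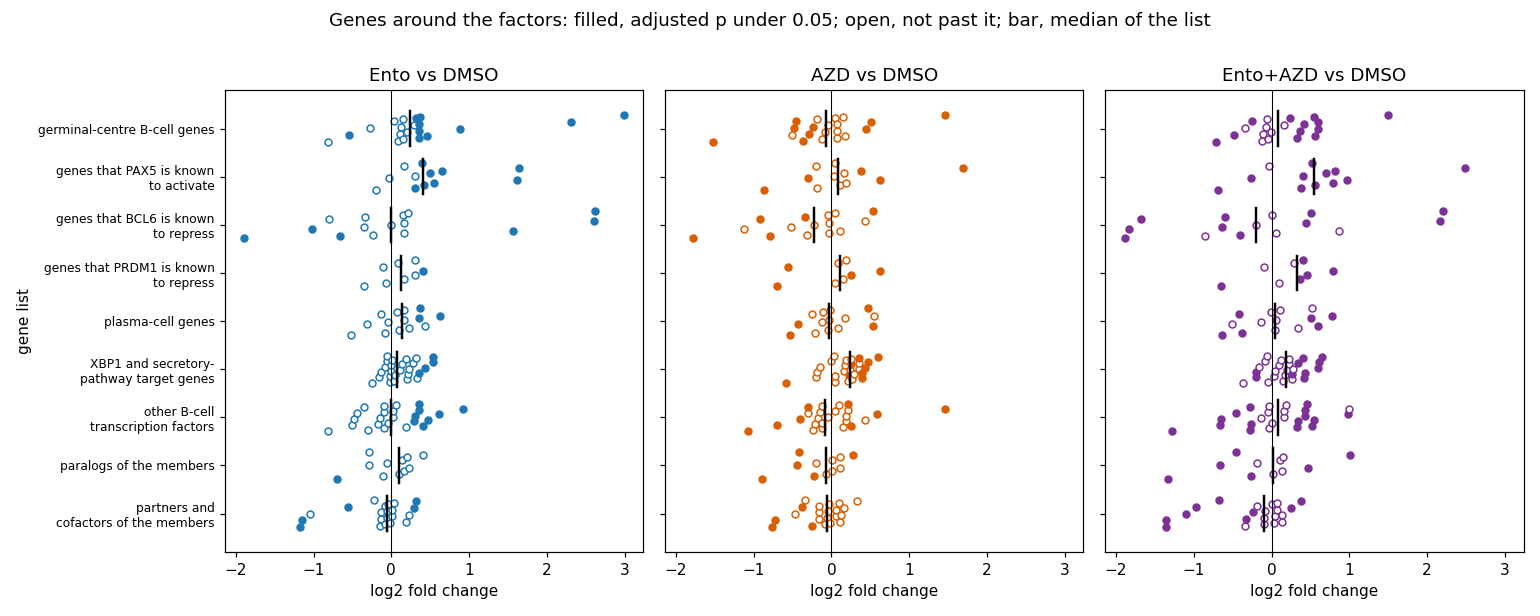
log2 fold change against DMSO (horizontal axes) of every tested gene in the 9 lists, with Ento, AZD and both agents; filled points passed an adjusted p of 0.05, black bars are the median of the list, and points are spread vertically only to be seen. Genes that PAX5 is known to activate lie mostly right of 0 with Ento and both agents (medians 0.40 and 0.54), while the secretory-pathway genes stay between -0.59 and 0.64.

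Relatives and partners of the factors were counted in the same way, against the shares of all genes given above. Of 11 paralogs tested of 14, none was higher and 1 lower with Ento, 1 was higher and 4 lower with AZD, and 2 were higher and 4 lower with both agents (medians 0.10, -0.06 and 0.02). With both agents IRF5 was lower by a log2 change of -1.32 ± 0.10 (adjusted p = 1.82e-06) and IRF7 higher by 1.01 ± 0.15 (adjusted p = 1.61e-04), both of them regulators of interferon responses. Of 21 partners and cofactors tested of 22, 2 were higher and 3 lower with Ento, none was higher and 4 lower with AZD, and 2 were higher and 7 lower with both agents (medians -0.06, -0.05 and -0.09). HDAC9, a histone deacetylase that binds MEF2 factors, was at -1.17 ± 0.17 with Ento (adjusted p = 0.00111) and -1.10 ± 0.17 with both agents (adjusted p = 2.41e-04). BATF, the AP-1 factor that binds DNA with IRF4 and IRF8, was at -1.15 ± 0.22 with Ento (adjusted p = 0.00560) and -1.35 ± 0.22 with both agents (adjusted p = 3.26e-04). MAFF, a small MAF protein of the kind that BACH2 pairs with, was at -1.35 ± 0.35 with both agents (adjusted p = 0.00718), from 4 to 25 counts in a library. That call of MAFF was lost without Ento+AZD replicate 1 and under the DESeq2 Wald test (adjusted p = 0.0586), and the Ento call of BATF without Ento replicate 1 (log2 -1.35 to -0.93 over all alternatives). Of 24 other B-cell transcription factors tested of 26, 8 were higher and none lower with Ento, 4 were higher and 4 lower with AZD, and 8 were higher and 7 lower with both agents (medians -0.01, -0.08 and 0.09). IKZF2, which encodes Helios, was lower with AZD (log2 -1.07 ± 0.15, adjusted p = 6.10e-04) and with both agents (-1.27 ± 0.15, adjusted p = 3.47e-05), and LMO2, described above, stands in this list too. In the fit with no replicate term, none of the calls of the list DEGs named here held with Ento or with AZD, and all but that of FCER2 (adjusted p = 0.0983) held with both agents.

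The genes whose pattern over the 12 libraries lay nearest to that of the 2 DEGs among the factors were found by the root-mean-square difference of log2 CPM, after the replicate and gene means were removed, among 10913 genes of at least 5 CPM. For BACH2 these were LOC105374377 (difference 0.19), LOC102723528 (0.22) and LOC105371461 (0.26), beside a spread of BACH2 itself of 0.79. For XBP1 they were LOC107984754 (0.20), TDRD6 (0.21) and LINC02666 (0.22), beside a spread of 0.63. LOC105374377 was at 5.52 CPM with DMSO, 14.2 CPM with Ento, 5.79 CPM with AZD and 15.4 CPM with both agents, and TDRD6 at 4.54, 8.67, 8.85 and 15.8 CPM in the same order. These likenesses rest on 12 libraries that share their groups and were found by search, so they are a description alone.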

How the data were processed

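Poly-A RNA of 12 SU-DHL-4 libraries was sequenced in single 75-base reads. Per the labels and the study's methods, the authors trimmed reads with Trim Galore and Cutadapt, aligned them to GRCh38.p13 (the processing notes also name hg19) and counted them per gene with Rsubread; settings for strand, shared and multiply mapped reads are not given in the sources used here. The deposited table of raw counts was used; a second deposited table, of log2 values of fewer genes, was not.

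Genes passing filterByExpr (minimum count 10, minimum total 15, by group) were tested with edgeR 4.0.16 in R 4.3.3: TMM scaling, glmQLFit with group and replicate number, glmQLFTest, Benjamini-Hochberg adjustment over all 16835 genes. A gene was called at an adjusted p under 0.05, and was a DEG if its absolute log2 fold change also exceeded 1. CPM values use TMM-scaled library sizes. The SE is the log2 fold change over the root of F. The replicate number was kept because it pairs the libraries: deviations from the group means correlated at 0.21 to 0.70 in all 18 pairs of the same number and at -0.63 to 0.33 in the 36 others. The replicates are described as biological; nothing says how the cultures were kept apart, so p-values measure the spread between these libraries. No replicate pair agreed within sampling noise.

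Gene positions, exon lengths and overlaps were taken from GENCODE on GRCh38, promoter windows from RefSeq. The 10 genes and all lists were chosen with earlier results of these data known. All 10 genes are reported; of the lists, at most the 4 DEGs with the largest change per list and comparison with DMSO are named, and the 3 genes of most similar pattern for each DEG among the 10, with exceptions stated; some genes of the lists are not reported by name here. Alternatives were RLE size factors, DESeq2 1.42.0, no or a stricter filter (1 CPM in 6 libraries), fits of only the groups compared, no replicate number, omission of each library, MEF2B summed with its read-through, and the longest transcript as length. The scripts were tested on simulated counts.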

Additional observations from a re-analysis of the deposited data

Results flagged for a closer look

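BACH2 and POU2AF1 were called in opposite directions with the single agents, and the direct test between the agents was past the threshold for both. For BACH2 the difference of Ento over AZD was 1.74 on the log2 scale (edgeR quasi-likelihood test, adjusted p = 2.29e-07), from a log2 fold change against DMSO of 1.36 with Ento and -0.38 with AZD, and it was higher with Ento in 3 of 3 libraries of the same number. For POU2AF1 the difference was 0.71 (adjusted p = 1.34e-05), from 0.47 with Ento and -0.23 with AZD, again in 3 of 3. The lower level with AZD was the weaker side for both genes, since that call was lost without DMSO replicate 2 (adjusted p up to 0.115 for BACH2 and 0.133 for POU2AF1 over all single omissions). The cause was not tested.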

How the results depend on the processing

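Among the 56 results of the 8 tested genes over 7 comparisons, 893 of 1007 values under another setting kept their direction and their side of the threshold, 72 lost a call, 21 gained one and 21 changed sign, all of these between values that were not called. The replicate number mattered most. Without it, as opposed to the model with the replicate block, none of the 8 genes was called with Ento, with AZD, or for both agents against Ento or against AZD (0 in each), while 4 were for both agents against DMSO and 2 for Ento against AZD. The calls over all genes then fell from 1401 to 36 with Ento (DEGs 275 to 19), from 3745 to 326 with AZD (537 to 114), from 6736 to 2398 with both agents (1401 to 799), from 3440 to 206 for both against Ento (564 to 83), from 2001 to 17 for both against AZD (282 to 11) and from 2478 to 539 for Ento against AZD (541 to 248). A fit of only the groups compared called 3 of the 8 genes with Ento, 3 with AZD and 6 for Ento against AZD, and 2343 genes in all with AZD and 3907 for Ento against AZD. Without a filter on low counts 2294 genes were called with Ento, 5 of the 8 for Ento against AZD, and 278 genes (64 DEGs) for the interaction, where DESeq2 called 7 (2 DEGs). The stricter filter left 169 DEGs with Ento, 327 with AZD, 918 with both agents, 371 for both against Ento and 354 for Ento against AZD.

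When single libraries were left out, 13 of the 25 calls of the 8 genes held in every omission. The number called ranged from 3 to 5 with Ento, 2 to 5 with AZD, 4 to 6 with both agents, 0 to 4 for both against Ento, 2 to 4 for both against AZD, 2 to 5 for Ento against AZD and 0 to 0 for the interaction. Over all genes the calls (and DEGs) ranged from 427 to 1681 (160 to 301) with Ento, 1253 to 4112 (268 to 740) with AZD, 4879 to 6765 (1266 to 1616) with both agents, 1402 to 4083 (319 to 677) for both against Ento, 595 to 2613 (167 to 327) for both against AZD, 1152 to 3028 (394 to 589) for Ento against AZD and 0 to 213 (0 to 59) for the interaction.

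The sign changes were in values near 0 on the log2 scale. BCL6 with Ento was at -0.0032 under RLE and under DESeq2, -0.00011 without the filter and -0.0037 in the fit of only the groups compared. Under single omissions BCL6 reached from -0.11 to 0.11 with Ento, -0.15 to 0.029 for both agents against AZD and -0.16 to 0.065 for the interaction. MEF2B reached from -0.068 to 0.16 with Ento and -0.043 to 0.19 for the interaction, PAX5 from -0.095 to 0.029 with AZD, SPIB from -0.14 to 0.064 with AZD and -0.18 to 0.035 for the interaction, and BACH2 from -0.10 to 0.022 for both agents against Ento. Counting BORCS8-MEF2B with MEF2B could change no value of MEF2B, since BORCS8-MEF2B was at 0 counts in every library. Those values are among the 893 that stayed the same. They do not test how reads in the shared exon bases were assigned. Another scaling moved the median of all genes by under 0.01. The causes were not tested, apart from the fewer genes or libraries that some settings hold by construction. At 55 to 245 counts XBP1 was the least precise of the tested genes, and IRF4 and PRDM1, at 9 counts or fewer in every library, did not pass the filter.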
